A study of Mus musculus with 12 samples.

Results

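The 35 genes described here had higher levels in both groups of LRF-deficient (KO) T cells than in the control group set beside each. LRF is a transcription factor encoded by Zbtb7a. A gene was taken when its mean level, with 0.1 added, was at least 3 times as high in KO as in control thymic precursors of intraepithelial lymphocytes (IELp). It also had to be at least 3 times as high in KO CD8αα spleen cells as in control CD8αα intraepithelial lymphocytes (IELs), with a mean of at least 2 CPM (counts scaled to the same total of gene counts in every library) in both KO groups. Of 26629 genes with a row in the deposited table, 41 met these conditions, which is 0.154%. From these, 3 predicted genes with Gm numbers, 1 gene with a Rik name, and Notch3 and Pth1r were left out by name. Because these values chose the genes, the KO to control ratios are a description with no test.

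The libraries came from sorted T cells of C57BL/6 mice, in 4 groups of 3 libraries, with 40000 cells sorted for each. All mice carried floxed Lrf alleles (Lrf fl/fl). KO mice also carried Cd4-Cre (Cd4 Cre+), a recombinase made under Cd4 control from developing thymocytes onward, and control mice lacked it (Cd4 Cre-), so the presence of Cre and the loss of LRF cannot be told apart. IELp were thymic TCRβ+ cells without CD4 or CD8α, with high CD5 and PD-1, with CD122 and H-2Kb, and without CD44. CD8αα cells were CD45+ TCRβ+ cells that had CD8α and lacked CD8β and CD4, taken from the IEL population in control mice and from the spleen in KO mice. Control spleen cells and KO IELs were not analysed here, so genotype and tissue cannot be told apart in the ratio of KO spleen cells to control IELs. Neither the mice's ages nor separate animals behind the libraries of a group are stated in the labels, so a p-value sets a difference against the spread of these libraries, which may be technical.

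LRF joins a POZ domain, which recruits corepressors, to zinc fingers of the Krüppel type that bind DNA, and it is known mainly as a repressor. In the T lineage it works beside ThPOK to keep CD4+ cells from taking on CD8 lineage genes, and in red cell precursors it silences fetal globin genes. IELp are self-reactive thymocytes that leave the thymus and give rise to CD8αα IELs of the gut lining. Many of the 35 genes are better known from other tissues. These encode secreted growth and matrix proteins, proteins of muscle and neuronal cytoskeleton, cell polarity receptors and scaffolds. Others are not, such as Tnfrsf25, a receptor on T cells, and some are uncharacterised.

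Between 13432598 and 19947734 counts per library were assigned to genes. Zbtb7a stood at 68.5 to 80.7 CPM in control and 42.0 to 50.8 CPM in KO IELp, and at 101 to 119 CPM in control IELs and 59.1 to 63.4 CPM in KO spleen cells, so every KO library lay below every control library beside it. The transcript that remained is counted over the whole gene, and the floxed exons are not named in the labels. The summed level of 20 T cell identity genes was 13020 to 13570 CPM in control IELp, 13330 to 13450 in KO IELp, 14300 to 15000 in control IELs and 14520 to 14720 in KO spleen cells. The sum hides changes of single genes. With edgeR, 13 of the 20 were higher and 5 lower in KO spleen cells than in control IELs. Over all 14875 tested genes the shares were 29.1% and 29.2%. From control IELs to KO spleen cells, Cd28 went from 0.254 to 103 CPM, Cd5 from 0.893 to 184 CPM and Cd3g from 2290 to 535 CPM. In IELp 4 were higher and 3 lower with KO, where 6.48% and 6.58% of all tested genes were. Marker lists of other cells were summed too. Over 12 epithelial genes the sum was 503 to 677 CPM in control IELs and 9.60 to 14.8 in KO spleen cells. Most of it in control IELs came from Cdh1 and Epcam, with means of 397 and 146 CPM. Epcam also stood at 62.0 CPM in control and 56.0 CPM in KO IELp. In control IELs Fabp2 was at 4.97 CPM, and Cldn7 and Alpi at 1.98 and 1.94 CPM, mostly from replicate 3. The sum of 10 B and plasma cell genes was 40.7 to 69.9 CPM in control IELs and 189 to 229 in KO spleen cells. The B cell marker Cd79a reached a mean of 11.5 CPM in KO spleen cells. The sum of 11 myeloid genes was 106 to 123 CPM in control IELs and 50.4 to 77.2 CPM in KO spleen cells. Of 8 tested, 5 were higher and 3 lower in KO spleen cells. Adgre1, C1qa and C1qb rose from 0 to 2.48, 2.23 and 5.31 CPM, Lyz2 from 0.0724 to 12.3 and Csf1r from 21.2 to 37.0 CPM. Fcgr3 fell from 53.6 to 1.43 CPM, Itgam from 29.3 to 0.678 CPM and Cd68 from 7.70 to 4.31 CPM. The sum of 9 erythroid and platelet genes was 0.799 to 0.901 CPM in control IELs and 2.16 to 42.9 CPM in KO spleen cells, where Pf4 stood at 7.92, 11.97 and 0.298 CPM. In IELp the B and plasma cell sum was 49.0 to 51.9 CPM in control and 84.8 to 93.8 CPM in KO libraries, where Sdc1, a syndecan of plasma and epithelial cells, rose from 26.8 to 67.7 CPM, while Ms4a1 was at 0 in KO IELp. The part of such cells in the levels of the 35 genes was not tested.

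Summed over the 35 genes, the level was 226, 211 and 202 CPM in control IELp and 1206, 1226 and 1135 CPM in KO IELp. It was 73.8, 73.7 and 74.5 CPM in control IELs and 1208, 1173 and 1185 CPM in KO spleen cells, so both KO groups held nearly the same sum while the control groups lay apart. In bulk libraries, fewer cells that express a gene and less RNA of it per cell cannot be told apart. The ratio of means with 0.1 added ran from 3.00 to 88.0 in IELp, with a median of 5.31, and from 3.31 to 690.0 in CD8αα cells, with a median of 20.1. Over the 11911 rows with KO means of at least 2 in both groups, the medians were 0.989 and 1.11. In 27 of the 35 genes the CD8αα ratio was the larger one. For all 35, every KO library lay above every control library in both pairs, as the rule makes likely; over the 11911 rows this held for 14.1% in IELp and 42.9% in CD8αα cells. The genes differed in how silent they were without KO: 11 of 35 had means under 1 CPM in both control groups, which was so for 15 of the 11911 rows, or 0.126%. The rule itself favours low control means, so these shares are a description and no result about the genes. In control IELs 8 of the 35 had 0 counts in all libraries, and Dchs1 and Smarca1 had 0 counts in control IELp as well.

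**Figure D1:**
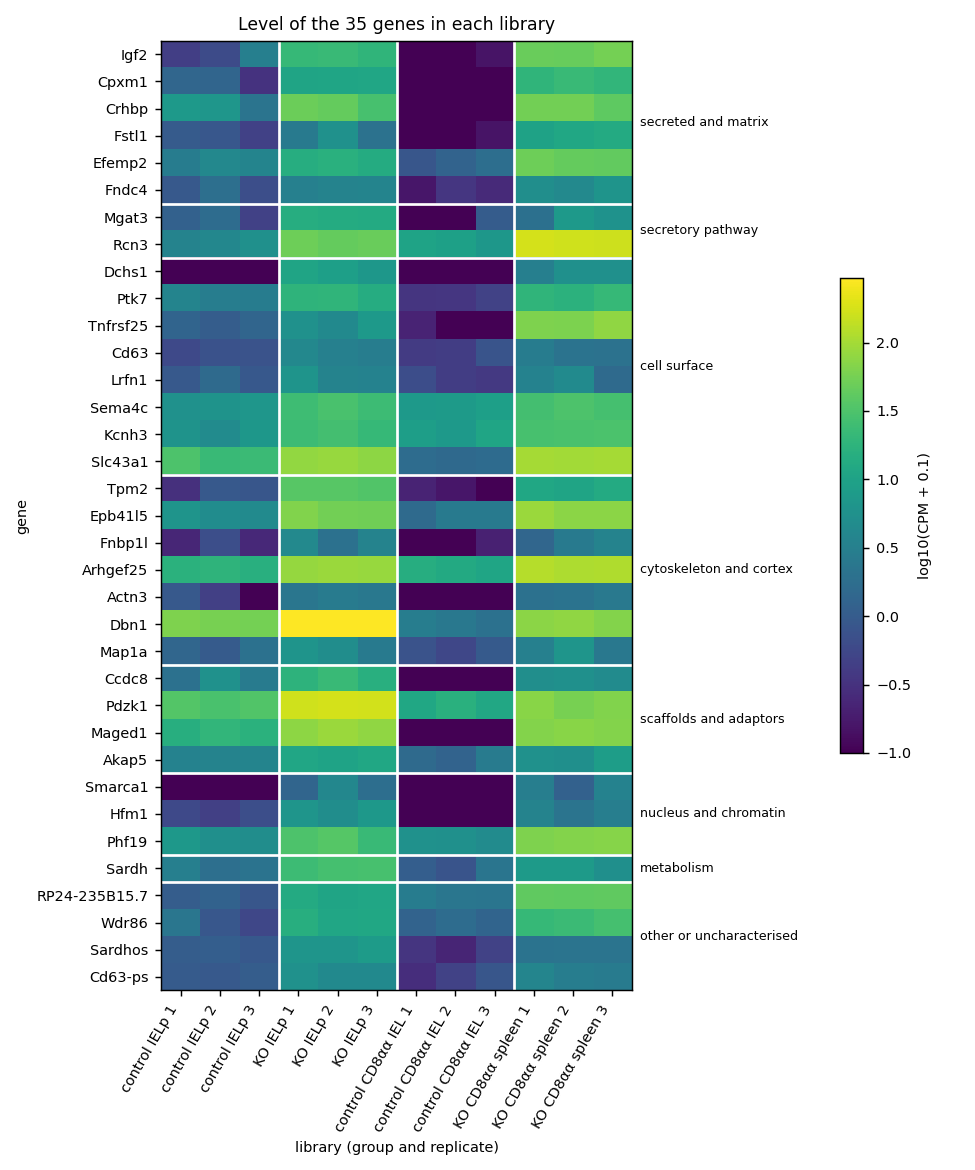
Heat map of the level of each of the 35 genes (rows, grouped by role) in each of the 12 libraries (columns), as log10 of CPM with 0.1 added, where dark cells at -1 mean 0 CPM. The 3 libraries of a group look alike, the 2 KO blocks are brighter than the control block to their left in every row, and Dchs1 and Smarca1 are at 0 in all 6 control libraries.

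**Figure D2:**
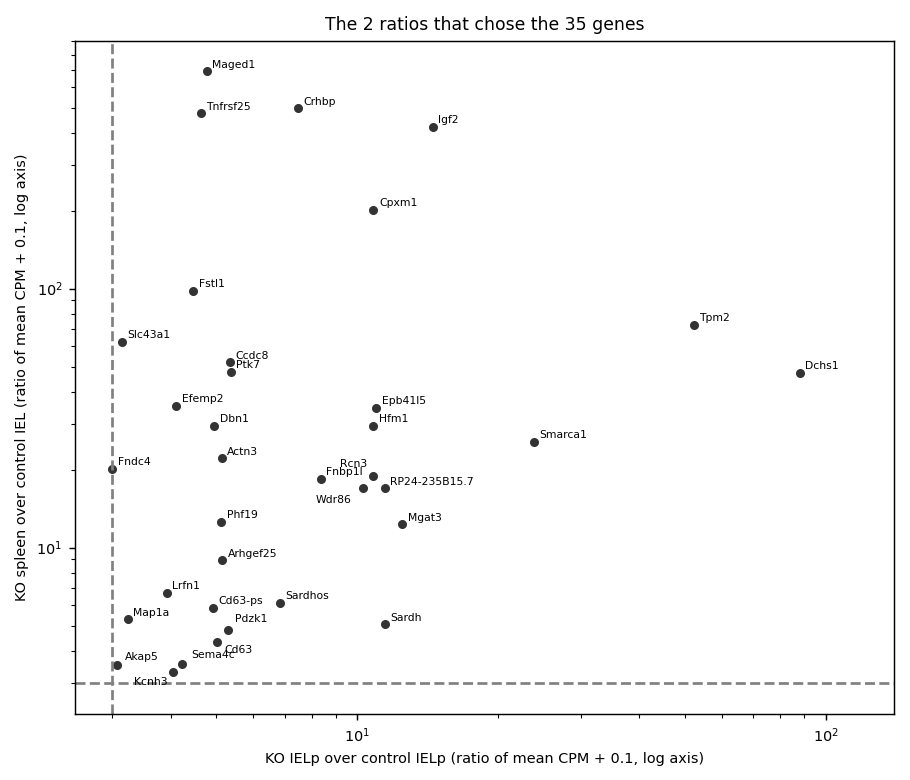
Each point is 1 gene, with its ratio of KO to control IELp on the horizontal log axis and of KO spleen cells to control IELs on the vertical log axis, both from mean CPM with 0.1 added; dashed lines mark the threshold of 3. Most points lie at moderate IELp ratios and spread widely upward, while Dchs1 and Tpm2 are the farthest right and Maged1, Crhbp, Tnfrsf25 and Igf2 the highest.

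Secreted and matrix proteins made up 6 of the 35 genes. Igf2, a fetal growth factor that signals through the IGF1 receptor, was at 0.341, 0.529 and 3.09 CPM in the 3 control IELp libraries and at 20.7, 22.5 and 18.3 CPM in KO IELp. In control IELs it was at 0, 0 and 0.0543 CPM and in KO spleen cells at 47.6, 45.8 and 55.7 CPM. Control IELp replicate 3 was higher than the other control libraries but far below all KO libraries. In CD8αα cells there were 2562 counts against 1, a ratio of 2462 with a 95% counting interval of 441 to 97279, which leaves the size of the ratio poorly known and its side clear. Crhbp, which encodes a secreted protein that binds corticotropin-releasing hormone, was at 7.51, 6.64 and 2.06 CPM in control and 48.9, 45.2 and 29.0 CPM in KO IELp. It had 0 counts in all control IEL libraries and stood at 54.4, 54.0 and 40.1 CPM in KO spleen cells. With a floor of 3 counts in the whole control group, that is at least 847-fold higher. Within each KO group replicate 3 was the lowest. Cpxm1, a secreted protein of the carboxypeptidase family without known enzyme activity, was at 1.30, 1.23 and 0.221 CPM in control and 10.6, 10.96 and 11.2 CPM in KO IELp. It too had 0 counts in control IELs, against 18.5, 22.5 and 18.98 CPM in KO spleen cells, which is at least 336-fold higher. The KO libraries of Cpxm1 were close to each other in both tissues.

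Fstl1, a follistatin-like glycoprotein, was low in IELp, with 0.887, 0.764 and 0.368 CPM in control and 2.57, 5.54 and 1.95 CPM in KO libraries. In CD8αα cells it was at 0, 0 and 0.0543 CPM in control IELs and 9.78, 11.5 and 13.1 CPM in KO spleen cells. Its KO IELp libraries were uneven, with replicate 2 the highest, yet none overlapped the control libraries. Efemp2, also called fibulin 4, helps to assemble elastic fibres and was at 2.80, 4.12 and 3.53 CPM in control and 14.7, 15.71 and 13.6 CPM in KO IELp. It was at 0.737, 1.16 and 1.68 CPM in control IELs and 50.1, 44.1 and 42.7 CPM in KO spleen cells. Fndc4, a secreted fibronectin domain protein, had the smallest ratio of all 35 genes and is given with the threshold below. Among fibroblast genes, Col1a2, Col3a1, Dcn, Lum, Fap, Postn and Pdgfra had 0 counts in all 6 KO libraries, and Col1a1 had 13 counts in KO IELp and 8 in KO spleen cells. Of the 4 fibroblast and stroma markers tested in CD8αα cells, 2 were higher (Thy1, and Pdgfrb at 0.145 and 1.68 CPM) and 2 lower in KO spleen cells; in IELp Pdgfrb fell from 2.51 to 0.731 CPM. Over the 10 such markers, of which 6 had a row, the sum was 3.35 to 5.38 CPM in control IELp, 1.53 to 2.05 in KO IELp, 3.35 to 5.59 in control IELs and 11.2 to 13.4 in KO spleen cells, the last mostly from Thy1, which T cells also make.

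In the secretory pathway, Rcn3, a calcium-binding chaperone of the endoplasmic reticulum known for its part in collagen production, was at 3.48, 3.94 and 5.45 CPM in control and 50.3, 44.0 and 47.6 CPM in KO IELp. It was at 10.1, 9.33 and 6.74 CPM in control IELs and 174, 166 and 159.8 CPM in KO spleen cells. With nothing added to the means, Rcn3 was 11.03 times as high in KO as in control IELp and 19.06 times as high in KO spleen cells as in control IELs. Mgat3, the enzyme that adds the bisecting sugar to N-glycans, was at 1.09, 1.59 and 0.368 CPM in control and 14.6, 13.5 and 13.3 CPM in KO IELp. It was at 0, 0 and 0.924 CPM in control IELs and 1.80, 7.20 and 5.73 CPM in KO spleen cells, where replicate 1 lay well below the other libraries.

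The stretches before the RefSeq start sites of Cpxm1 and Rcn3 are shown because these genes, 1 secreted and 1 resident in the secretory pathway, were the ones of their roles with a single listed promoter and a smaller ratio above 10. Both are on the minus strand of GRCm38.p6, the build also called mm10, and run 5′ to 3′ toward the start site. Cpxm1 spans chr2:130397630-130397879 and Rcn3 spans chr7:45092214-45092463. Capitals mark matches, on either strand, to the GC box GGGCGG and to CCNCNCCC, a pattern of sites for Krüppel-like factors (KLF). No motif was searched as a site of LRF.
Cpxm1: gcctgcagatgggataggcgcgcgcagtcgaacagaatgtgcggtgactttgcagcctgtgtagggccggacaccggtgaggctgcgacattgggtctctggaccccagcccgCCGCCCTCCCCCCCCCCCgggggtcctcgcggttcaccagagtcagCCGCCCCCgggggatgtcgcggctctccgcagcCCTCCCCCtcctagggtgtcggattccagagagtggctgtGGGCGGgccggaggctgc
Rcn3: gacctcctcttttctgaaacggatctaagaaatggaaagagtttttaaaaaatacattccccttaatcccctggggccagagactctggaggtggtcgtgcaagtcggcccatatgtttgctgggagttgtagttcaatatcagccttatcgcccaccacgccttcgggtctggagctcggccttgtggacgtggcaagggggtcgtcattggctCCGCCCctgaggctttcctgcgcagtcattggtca
In the whole windows of 300 bases, which reach 50 bases past the start, Cpxm1 held 6 GC boxes and 9 CCNCNCCC matches, and Rcn3 held 2 GC boxes and 0 CCNCNCCC matches. The 2 promoters thus share the GC box but not CCNCNCCC.

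At the cell surface, Dchs1, a giant protocadherin that sets planar cell polarity with Fat4, had 0 counts in all 6 control libraries. It was at 10.5, 8.91 and 6.70 CPM in KO IELp and 3.06, 5.51 and 5.36 CPM in KO spleen cells, at least 129-fold and at least 75.9-fold higher. Ptk7, a Wnt co-receptor with an inactive kinase domain that acts in planar cell polarity, was at 3.55, 2.82 and 2.80 CPM in control and 18.02, 18.5 and 14.1 CPM in KO IELp. It was at 0.246, 0.257 and 0.380 CPM in control IELs and 18.4, 16.7 and 21.1 CPM in KO spleen cells. For Ptk7 both KO groups reached a like level from unlike control levels. Tnfrsf25, or DR3, a receptor on T cells for the cytokine TL1A, was at 1.23, 0.941 and 1.25 CPM in control and 5.55, 4.27 and 7.12 CPM in KO IELp. In control IELs it had 2 counts over the group, and in KO spleen cells it was at 62.4, 61.2 and 77.3 CPM, a ratio of 1652 with a 95% counting interval of 457 to 13649.5. Tnfrsf25 thus stood low in both IELp groups and high only in KO spleen cells among these 4 groups.

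The remaining surface genes had smaller CD8αα ratios, apart from Slc43a1. Sema4c, a transmembrane semaphorin that binds plexin B2, was at 5.60, 6.06 and 6.48 CPM in control and 24.7, 29.3 and 23.7 CPM in KO IELp. It was at 7.31, 7.66 and 9.07 CPM in control IELs and 26.8, 31.8 and 27.7 CPM in KO spleen cells. Kcnh3, a voltage-gated potassium channel of the brain, was at 6.00, 4.64 and 6.78 CPM in control and 23.6, 27.0 and 20.9 CPM in KO IELp, and at 8.79, 7.21 and 10.97 CPM in control IELs and 29.1, 29.9 and 31.0 CPM in KO spleen cells. In these 2 genes control IELs were not the lower control group. Lrfn1, a synaptic adhesion protein, was at 0.819, 1.47 and 0.810 CPM in control and 6.21, 3.49 and 3.32 CPM in KO IELp, and at 0.553, 0.322 and 0.272 CPM in control IELs and 3.41, 4.50 and 1.49 CPM in KO spleen cells. Cd63, a tetraspanin of lysosomes and exosomes, was at 0.478, 0.647 and 0.663 CPM in control and 4.09, 3.19 and 2.90 CPM in KO IELp, and at 0.307, 0.322 and 0.706 CPM in control IELs and 2.81, 2.01 and 1.94 CPM in KO spleen cells. Its processed pseudogene Cd63-ps was at 0.887, 0.823 and 0.957 CPM in control and 5.61, 4.33 and 4.38 CPM in KO IELp, and at 0.184, 0.386 and 0.761 CPM in control IELs and 3.71, 2.86 and 2.68 CPM in KO spleen cells. A gene and its processed copy share sequence. Reads without a unique alignment, 13.1 to 18.8% of each library's total, were counted to no gene. Reads that match Cd63 and Cd63-ps equally could thus be missing from both, and both levels are uncertain.

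The promoters of Ptk7 and Tnfrsf25 are shown because these surface genes had, in turn, close and far apart levels in the 2 KO groups. Ptk7 spans chr17:46629505-46629754 on the minus strand and Tnfrsf25 chr4:152115684-152115933 on the plus strand of GRCm38.p6, with capitals as before. Tnfrsf25 has a second listed start, whose window held 0 of either motif.
Ptk7: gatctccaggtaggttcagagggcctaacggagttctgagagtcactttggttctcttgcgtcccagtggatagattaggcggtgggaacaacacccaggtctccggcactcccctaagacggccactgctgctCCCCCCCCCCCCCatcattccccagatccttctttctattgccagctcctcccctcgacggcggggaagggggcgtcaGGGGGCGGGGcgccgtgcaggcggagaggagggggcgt
Tnfrsf25: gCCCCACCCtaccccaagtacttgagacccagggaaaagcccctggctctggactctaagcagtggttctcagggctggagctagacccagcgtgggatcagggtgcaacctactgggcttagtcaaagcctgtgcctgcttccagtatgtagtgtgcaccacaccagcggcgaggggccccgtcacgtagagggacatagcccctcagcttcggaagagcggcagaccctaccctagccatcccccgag
In the windows of 300 bases Ptk7 held 1 GC box and 9 CCNCNCCC matches, most of them overlapping in 1 run of C, and Tnfrsf25 held 2 of each.

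Cytoskeleton and cell cortex gave 7 genes. Tpm2, a tropomyosin that runs along actin filaments in muscle, was at 0.205, 0.823 and 0.736 CPM in control and 36.6, 37.2 and 33.8 CPM in KO IELp, 61.0 times as high. It was at 0.123, 0.0643 and 0 CPM in control IELs and 11.4, 10.4 and 13.2 CPM in KO spleen cells, a ratio of 193 on 3 control counts with a 95% counting interval of 65.6 to 936. Tpm2 was thus nearly silent in all control libraries and present in all KO libraries. Dbn1, or drebrin, which bundles actin in dendritic spines and at the immune synapse, was already made by control IELp. It was at 63.3, 57.5 and 55.4 CPM in control and 296, 291 and 287 CPM in KO IELp, and at 2.89, 2.38 and 1.90 CPM in control IELs and 74.1, 78.9 and 66.7 CPM in KO spleen cells. The Dbn1 level of KO spleen cells was near that of control IELp. Actn3, the α-actinin of fast muscle fibres, was at 0.819, 0.353 and 0 CPM in control and 2.18, 2.71 and 2.37 CPM in KO IELp, and went from 0 counts in control IELs to 1.85, 2.01 and 2.46 CPM in KO spleen cells. Both KO means of Actn3 lay close to the minimum of 2 CPM.

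Epb41l5, a band 4.1 protein that links membrane proteins to actin during cell movement, was at 6.14, 4.76 and 4.42 CPM in control and 64.9, 53.3 and 52.8 CPM in KO IELp. It was at 1.47, 2.51 and 2.55 CPM in control IELs and 90.0, 72.6 and 74.4 CPM in KO spleen cells. Epb41l5 was thus raised by more than 10 times in both pairs, at 11.2 and 36.3 times. Arhgef25, a guanine nucleotide exchange factor, was at 16.5, 18.1 and 15.2 CPM in control and 83.0, 88.1 and 86.3 CPM in KO IELp, and at 14.6, 12.9 and 10.9 CPM in control IELs and 123, 109 and 113 CPM in KO spleen cells. The libraries of Arhgef25 varied little within each group. Fnbp1l, or Toca-1, which couples Cdc42 to actin assembly, was at 0.136, 0.588 and 0.147 CPM in control and 4.16, 1.87 and 3.48 CPM in KO IELp, and at 0, 0 and 0.109 CPM in control IELs and 1.30, 2.49 and 3.42 CPM in KO spleen cells. Map1a, a microtubule-associated protein of neurons, was at 1.30, 0.882 and 1.84 CPM in control and 6.21, 4.94 and 2.53 CPM in KO IELp, and at 0.676, 0.450 and 0.869 CPM in control IELs and 3.11, 6.35 and 2.38 CPM in KO spleen cells. Fnbp1l and Map1a were low and uneven between KO libraries, and in each KO group 1 library of Fnbp1l was below 2 CPM.

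Scaffolds and adaptors gave 4 genes. Pdzk1, a PDZ scaffold of kidney and liver transporters, was at 34.3, 29.5 and 33.6 CPM in control and 166, 178 and 173 CPM in KO IELp, and at 11.7, 15.96 and 11.9 CPM in control IELs and 71.3, 56.6 and 64.3 CPM in KO spleen cells. Maged1, a MAGE family adaptor of neurotrophin receptor signalling, was at 14.9, 19.11 and 16.4 CPM in control and 76.5, 87.9 and 78.0 CPM in KO IELp. It had 0 counts in control IELs and stood at 67.4, 71.7 and 67.5 CPM in KO spleen cells, at least 1155-fold higher. Its CD8αα ratio with 0.1 added, 690.0, was the largest of the 35 genes. Ccdc8, a subunit of the 3M complex, was at 1.84, 5.64 and 2.65 CPM in control and 17.4, 22.6 and 15.5 CPM in KO IELp, and went from 0 counts in control IELs to 5.16, 5.40 and 4.69 CPM in KO spleen cells, at least 85.8-fold. Akap5, an anchor of protein kinase A and calcineurin, is given with the threshold below.

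Nuclear proteins gave 3 genes. Phf19, a Polycomb-like protein that brings the complex PRC2 to chromatin, was at 7.10, 5.17 and 5.01 CPM in control and 31.8, 35.6 and 22.4 CPM in KO IELp, and at 5.65, 5.40 and 4.56 CPM in control IELs and 62.8, 66.5 and 70.2 CPM in KO spleen cells. The control means of Phf19 were 5.76 and 5.21 CPM. Smarca1, the ISWI remodelling ATPase SNF2L of neurons, had 0 counts in all control libraries and was at 1.25, 3.91 and 1.69 CPM in KO IELp and 2.91, 1.11 and 3.35 CPM in KO spleen cells, at least 34.5-fold and at least 39.7-fold. Hfm1, a helicase of meiotic crossing over, was at 0.478, 0.353 and 0.589 CPM in control and 6.40, 4.88 and 7.01 CPM in KO IELp, and went from 0 counts in control IELs to 3.51, 2.07 and 2.98 CPM in KO spleen cells, at least 47.7-fold. Smarca1 was uneven between KO libraries, from 1.25 to 3.91 CPM in IELp.

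Metabolism and uncharacterised genes made up the rest. Sardh, the mitochondrial enzyme that breaks down sarcosine, was at 3.00, 1.76 and 1.99 CPM in control and 24.0, 28.1 and 28.4 CPM in KO IELp, and at 0.983, 0.708 and 2.12 CPM in control IELs and 7.57, 7.73 and 5.21 CPM in KO spleen cells. Sardhos, annotated on the strand opposite to Sardh, was at 0.955, 1.000 and 0.810 CPM in control and 6.40, 6.32 and 7.91 CPM in KO IELp, and at 0.246, 0.129 and 0.380 CPM in control IELs and 2.01, 2.07 and 2.08 CPM in KO spleen cells. The strand setting of the counting is not given in the sources used here, so reads of Sardh and Sardhos cannot be told apart and the 2 are not independent entries. Wdr86, a WD repeat protein, was at 2.18, 0.764 and 0.442 CPM in control and 14.7, 11.2 and 11.7 CPM in KO IELp, and at 1.17, 1.61 and 1.20 CPM in control IELs and 20.8, 23.5 and 28.0 CPM in KO spleen cells. RP24-235B15.7, a transcript named after a genomic clone, was at 0.955, 1.12 and 0.736 CPM in control and 13.3, 10.7 and 11.3 CPM in KO IELp, and at 2.76, 2.19 and 2.12 CPM in control IELs and 41.9, 40.7 and 41.8 CPM in KO spleen cells. Wdr86 and RP24-235B15.7 each stood higher in KO spleen cells than in KO IELp.

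At the threshold, the 3 genes just inside were Fndc4 with a smaller ratio of 3.00, Akap5 with 3.08 and Slc43a1 with 3.15. Fndc4 was at 0.819, 1.76 and 0.589 CPM in control and 3.10, 3.43 and 3.59 CPM in KO IELp, and at 0.0614, 0.257 and 0.163 CPM in control IELs and 5.16, 4.18 and 6.10 CPM in KO spleen cells. Akap5 was at 3.34, 3.47 and 3.61 CPM in control and 11.2, 10.1 and 11.5 CPM in KO IELp, and at 1.47, 1.16 and 2.66 CPM in control IELs and 5.56, 5.30 and 8.49 CPM in KO spleen cells. Slc43a1, a transporter of large neutral amino acids, was at 31.7, 22.4 and 23.3 CPM in control and 81.0, 86.8 and 76.6 CPM in KO IELp, and at 1.60, 1.42 and 1.52 CPM in control IELs and 101, 98.9 and 100.3 CPM in KO spleen cells. Slc43a1 shows how a gene near the threshold in IELp can be far from it in CD8αα cells. Just outside lay Spire1, an actin nucleator, with 2.97, Arhgef40 with 2.92 and Clcn2, a chloride channel, with 2.88. Spire1 went from 1.83 to 11.6 CPM in IELp and from 4.34 to 13.1 CPM in CD8αα cells, and Arhgef40 from 42.2 to 123 CPM and from 13.2 to 62.1 CPM, so the line between inside and outside is not a gap.

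The IELp condition alone, with names left out, held for 70 genes, of which the 35 are 50%; with all names kept it held for 0.304% of the 26629 rows. The CD8αα condition alone held for 886 genes, of which they are 3.95%, and with all names kept for 4.03% of rows. Of the other 35 genes of the IELp condition, 20 stayed under 2 CPM in KO spleen cells and 15 passed that level with a CD8αα ratio under 3. Among the 20 were Cnn1, a calponin of smooth muscle (0.0491 to 6.78 CPM in IELp, 1.29 in KO spleen cells), Tagln3, Mfap2, a microfibril protein (1.86 to 13.5, then 1.34), and the imprinted RNA H19. In 11 of these other 35 genes KO spleen cells lay below control IELs. These include Mras, a Ras-like GTPase (0.658 to 7.73 CPM in IELp, but 86.7 in control IELs and 8.41 in KO spleen cells), Mcam and Lamc1.

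The 2 KO groups were then compared; they differ in stage and tissue at the same genotype. The choice of genes set no condition on this difference, but it required at least 2 CPM in both groups, which left out 20 of the 70 genes of the IELp condition for low KO spleen levels. The counts and the median therefore describe the chosen genes and carry no evidence of a lean to one side. All 35 genes were tested with edgeR; 14 were higher in KO spleen cells, 10 were higher in KO IELp and 11 did not pass an adjusted p of 0.05. Over all 14880 tested genes 22.6% were higher and 22.4% lower in KO spleen cells, where 14 and 10 of 35 are 40.0% and 28.6%. Their median log2 fold change was 0.20, against -0.003 for all tested genes. All 24 called genes had groups that did not overlap, as a call on so few libraries makes likely. The share among all called genes was not computed.

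Tnfrsf25 differed most, with 5.65 ± 1.43 CPM in KO IELp and 67.0 ± 9.01 CPM in KO spleen cells (SD, n = 3; edgeR adjusted p = 9.55e-10, with a log2 fold change of 3.66 and an SE of 0.16). Rcn3 rose from 47.3 ± 3.16 to 166 ± 7.05 CPM (edgeR adjusted p = 1.55e-10, with a log2 fold change of 1.93 and an SE of 0.07). Among the 6 secreted and matrix genes, 5 were higher in the spleen: Fstl1 by 1.88 on the log2 scale, Efemp2 by 1.75, Igf2 by 1.39, Cpxm1 by 0.98 and Fndc4 by 0.71. The sixth, Crhbp, had overlapping groups at 41.0 ± 10.6 and 49.5 ± 8.13 CPM (edgeR adjusted p = 0.0775, and 0.0496 with DESeq2). Phf19, RP24-235B15.7 and Wdr86 were also higher in the spleen, by 1.27, 1.93 and 1.05, and Epb41l5, Arhgef25, Kcnh3 and Slc43a1 by 0.59 or less.

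Dbn1 was the gene with the largest difference toward the thymus, at 291 ± 4.32 CPM in KO IELp and 73.2 ± 6.15 CPM in KO spleen cells (edgeR adjusted p = 9.33e-11, with a log2 fold change of -1.88 and an SE of 0.07). Sardh lay lower in the spleen by a log2 fold change of -1.85 and Sardhos by -1.63, whose reads cannot be told apart. Of the 4 scaffolds, Ccdc8, Pdzk1 and Akap5 were lower in the spleen (log2 fold changes -1.74, -1.32 and -0.66) and Maged1 did not pass (80.8 ± 6.19 and 68.9 ± 2.47 CPM, edgeR adjusted p = 0.239). Tpm2 (-1.52), Mgat3 (-1.39), Hfm1 (-0.99) and Dchs1 (-0.80) completed the lower genes. The calls for Dchs1, Akap5 and Fndc4 were each lost when some single library was left out, all by edgeR. For Dchs1 the adjusted p was 0.0935, 0.0554 and 0.0654 without KO IELp replicate 1, KO IELp replicate 2 and KO spleen replicate 1. For Akap5 it was 0.0515 without KO IELp replicate 3 and 0.0503 without KO spleen replicate 2 (edgeR). For Fndc4 it was 0.0675, 0.0519 and 0.0681 without KO IELp replicate 1, KO IELp replicate 2 and KO spleen replicate 3 (edgeR). Genes that did not pass included Ptk7 (16.9 ± 2.39 and 18.8 ± 2.23 CPM, edgeR adjusted p = 0.156), Sema4c, Smarca1 and Actn3, which does not show that their levels were equal.

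**Figure D3:**
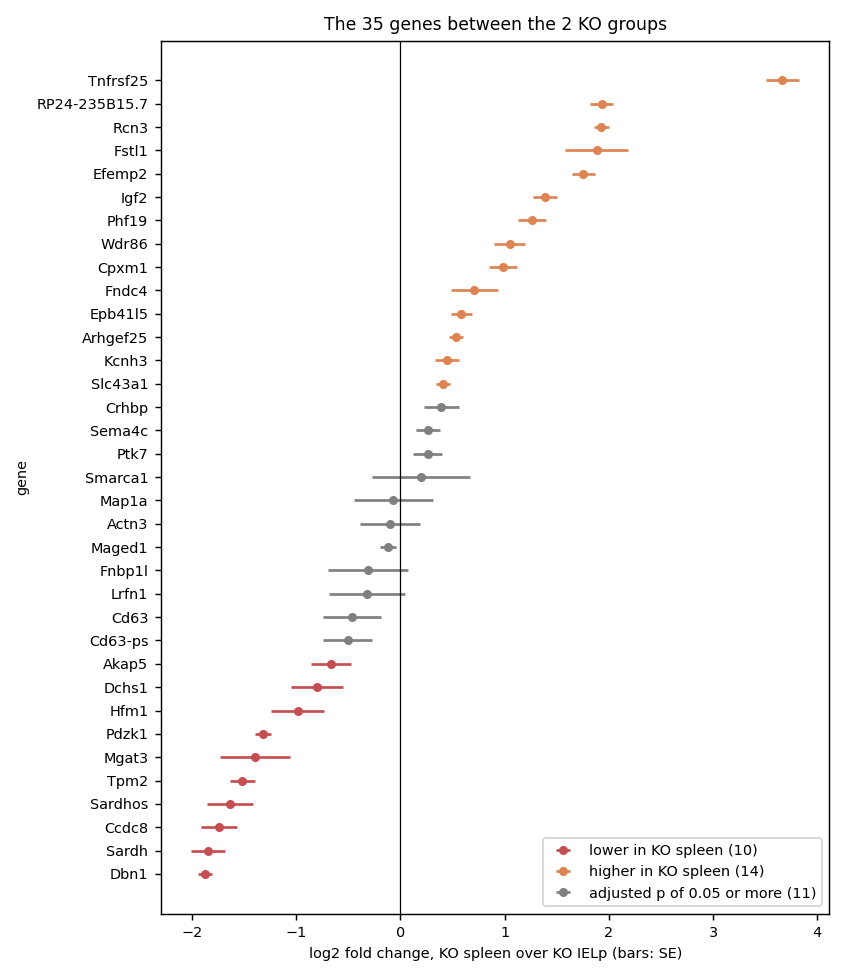
Log2 fold change of each of the 35 genes between KO spleen cells and KO IELp (edgeR, 3 libraries a group), with positive values higher in the spleen; bars are SE and colour gives the call at an adjusted p of 0.05. Tnfrsf25 stands apart at 3.66, 14 genes are called higher and 10 lower, with Dbn1 lowest at -1.88.

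The control groups were compared in the same way, IELs against IELp. Here 25 of the 35 genes passed the filter on low counts and 10 were too low to be tested. Of the 25, 4 were higher in control IELs and 12 lower, where over all 14878 tested genes 31.9% were higher and 32.9% lower. Their median log2 fold change was -0.99, against -0.01 for all tested genes. The choice of genes favours low levels in both control groups. A gene at 0 counts in control IELs could pass the filter only through its counts in control IELp. The counts of calls and the median therefore describe the chosen genes and carry no evidence of a lean to one side. The largest falls were Maged1, Crhbp and Ccdc8, which had 767, 251 and 159 counts in control IELp and 0 in control IELs, so they were at least 284-fold, 92.9-fold and 58.8-fold lower. Dbn1 went from 58.7 ± 4.11 to 2.39 ± 0.493 CPM (edgeR adjusted p = 1.99e-09, with a log2 fold change of -4.39 and an SE of 0.16) and Slc43a1 from 25.8 ± 5.11 to 1.51 ± 0.0914 CPM (-3.85, SE 0.20, edgeR adjusted p = 4.14e-08). Tnfrsf25 was lower by a ratio of 28.3 on 51 against 2 counts, with a 95% counting interval of 7.45 to 240.1. Ptk7 (-3.10), Efemp2 (-1.30), Pdzk1 (-1.07) and Epb41l5 (-0.99) were lower too, while Sardhos and Lrfn1 passed with edgeR (adjusted p = 0.0157 and 0.0478) and lost the call with DESeq2 (adjusted p = 0.0819 and 0.158).

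The 4 genes higher in control IELs were RP24-235B15.7 (log2 fold change 1.54), Rcn3 (1.26), Kcnh3 (0.87) and Sema4c (0.64). Rcn3 went from 4.29 ± 1.03 to 8.73 ± 1.78 CPM (SE 0.24, edgeR adjusted p = 8.31e-04). RP24-235B15.7, Rcn3 and Kcnh3 were thus higher in the CD8αα group both among controls and among KO groups, at fold changes tested one by one. The call for Sema4c was lost with limma on the deposited values (adjusted p = 0.0609), which do not rescale for a few abundant genes. With that scaling the median over all tested genes was -0.21 on the log2 scale, and 34.7% of called genes were higher in control IELs against 49.2% with edgeR. The same change of scaling moved the share of called genes that were higher in KO spleen cells than in KO IELp from 50.3% to 35.7%, at a median of -0.10, and left 14 of the 35 genes higher and 12 lower.

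Relatives and partners of the 35 genes were looked up next, picked after the genes were known. Of 105 such genes, 76 were tested between KO and control IELp; 16 were higher and 10 lower, with a median log2 fold change of -0.01, where 6.48% of all 14629 tested genes were higher and 6.58% lower. The tropomyosins beside Tpm2 did not pass: Tpm1 was at 87.1 and 77.3 CPM in control and KO IELp, Tpm3 at 431 and 463 CPM, and Tpm4 at 727 and 714 CPM (edgeR adjusted p = 0.215, 0.109 and 0.976). Of the reticulocalbins beside Rcn3, Rcn1 rose from 139 to 170.3 CPM (edgeR adjusted p = 0.00391), and Rcn2 and Calu did not pass (adjusted p = 0.502 and 0.477). These tests were in IELp. In CD8αα cells Tpm1, Tpm3 and Tpm4 were higher in KO spleen cells (log2 fold changes from 0.48, 0.41 and 3.17 upward over the alternatives). Rcn1 and Rcn2 were lower there (-0.45 to -0.25 and -0.49 to -0.31), and Calu did not pass (edgeR adjusted p = 0.731). Cul7, the scaffold of the 3M complex to which Ccdc8 belongs, rose from 31.9 to 63.9 CPM in IELp (edgeR adjusted p = 1.50e-05, with a log2 fold change of 1.03 and an SE of 0.11) and from 12.3 to 63.9 CPM in CD8αα cells (log2 fold change 2.26). Obsl1, the other 3M subunit, had means of at most 0.218 CPM in all 4 groups. Vangl2, a core planar polarity protein, rose from 17.0 to 32.9 CPM in IELp (edgeR adjusted p = 1.32e-04, with a log2 fold change of 0.98 and an SE of 0.13) and from 0.714 to 33.7 CPM in CD8αα cells. Celsr1, another polarity protein, fell from 13.9 to 7.19 CPM in IELp and rose from 7.09 to 28.9 CPM in CD8αα cells, so the polarity partners did not move one way.

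Among tetraspanins beside Cd63, Cd81 rose from 141 to 230.4 CPM in KO IELp while Cd82 fell from 145 to 69.0 CPM and Cd9 from 67.3 to 42.6 CPM (log2 fold changes 0.73, -1.04 and -0.64). In CD8αα cells all 3 were higher in KO spleen cells, Cd81 at 0.543 and 139.7 CPM, Cd82 at 108 and 188 CPM and Cd9 at 13.8 and 39.9 CPM. Of the PRC2 genes beside Phf19, Phf1 rose by a log2 fold change of 0.40 (edgeR adjusted p = 0.0267; lost without control IELp replicate 1 or 2 or KO IELp replicate 2 or 3, with values up to 0.139), Ezh1 fell from 116 to 87.6 CPM, and Ezh2, Eed, Suz12 and Mtf2 did not pass in IELp (edgeR adjusted p between 0.0583 and 0.966). Smarca5, the other ISWI ATPase, did not pass in IELp (178 and 174 CPM, edgeR adjusted p = 0.933). In CD8αα cells Phf1, Ezh1 and Smarca5 were lower in KO spleen cells. Their log2 fold changes over the alternatives were -0.89 to -0.73, -2.015 to -1.85 and -0.38 to -0.23. Eed was higher there (0.26 to 0.42). Mtf2 was lower, a call lost in 9 of 13 alternatives, and Ezh2 and Suz12 did not pass in the edgeR fit of these groups. In IELp Actn1 rose from 73.5 to 109 CPM and Epb41l2 from 112 to 151 CPM. Trip10, an F-BAR relative of Fnbp1l, rose there from 16.2 to 25.3 CPM, and Sema4a from 221 to 289 CPM. For the IGF system around Igf2, Igf1r fell from 12.9 to 8.03 CPM and Igf2r, which clears Igf2, rose from 301 to 339 CPM, with an edgeR adjusted p of 0.0247. That call was lost in 5 of 13 alternatives: the fit of all 12 libraries (0.482), without control IELp replicate 2 or 3, and without KO IELp replicate 1 or 2 (edgeR adjusted p up to 0.124). Both genes went the other way in CD8αα cells. Igf1r was higher in KO spleen cells than in control IELs (log2 fold changes of 1.10 to 5.31 over the alternatives) and Igf2r lower (-0.77 to -0.36). Each of these calls was lost in 1 of 13 alternatives. In CD8αα cells 21 of 71 tested relatives were higher and 33 lower in KO spleen cells than in control IELs, where 29.1% of 14875 tested genes were higher and 29.2% lower.

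Lists of genes by function were tested next, with the 35 genes left out of each. Of 29 tested genes of muscle and contractile cytoskeleton, 8 were called higher and 4 lower in IELp with KO, with a median log2 fold change of 0.07 against -0.01 for all tested genes. Cnn1 was at 0, 0 and 0.147 CPM in control and 5.48, 7.59 and 7.28 CPM in KO IELp, a ratio of 155 on 2 control counts (95% counting interval 42.5 to 1283). Tagln3 was at 0.136, 0 and 0 CPM in control and 4.69, 3.49 and 3.43 CPM in KO IELp, a ratio of 86.5 on 2 control counts (23.6 to 719.5). Cnn1 and Tagln3 thus resembled Tpm2 in IELp, while in KO spleen cells their means were 1.29 and 0.399 CPM. Myh10 rose from 4.27 to 12.02 CPM and Cnn3 from 102 to 154.5 CPM, while Myl1 fell from 41.5 to 13.6 CPM and Actg2 from 17.0 to 9.01 CPM. The call for Actg2 was lost without control IELp replicate 3 (edgeR adjusted p = 0.0510) or KO IELp replicate 1 (0.0669). Over all tested genes 6.48% were higher and 6.58% lower. In CD8αα cells 13 of 22 tested were higher and 5 lower in KO spleen cells, where 29.1% and 29.2% of all tested genes were, with Tpm4 (54.4 to 577 CPM) and Cnn3 (6.51 to 54.6 CPM) among the higher.

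Of 17 tested matrix and secretory genes, 6 were higher and 2 lower in KO IELp (median log2 fold change 0.10). P4ha1, a collagen prolyl hydroxylase, rose from 67.0 to 121 CPM (edgeR adjusted p = 7.27e-07, with a log2 fold change of 0.87 and an SE of 0.07), and the collagen-modifying genes Fkbp10, Plod1 and Plod3 rose from 3.30 to 6.76, 22.7 to 31.9 and 19.15 to 28.1 CPM. Lamc1, a laminin chain, rose from 6.82 to 21.5 CPM, Timp2 fell from 203 to 138 CPM and Lox from 7.96 to 3.58 CPM. The call for Lox was lost in 4 of 13 alternatives, among them those without control IELp replicate 3, KO IELp replicate 1 or KO IELp replicate 2 (edgeR adjusted p up to 0.106). The call for Plod3 was lost without control IELp replicate 2 or KO IELp replicate 1 (up to 0.0558). In CD8αα cells 4 of 21 were higher and 11 lower; P4ha1 rose from 17.6 to 97.2 CPM and Fkbp10 from 0.180 to 23.5 CPM there, while Lamc1 fell from 42.4 to 26.4 CPM. The collagen-modifying genes P4ha2 and Plod2 fell there too, from 14.5 to 0.0993 CPM and from 13.07 to 4.26 CPM.

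Of 14 tested genes of insulin-like growth factors and imprinting, 3 were higher (H19, Gnas and Igf2r) and 3 lower (Grb10, Igf1r and Igfbp4) in KO IELp, with a median log2 fold change of -0.31. The calls for Grb10, Igf1r and Igfbp4 were lost with 1 fit of all 12 libraries, with edgeR adjusted p of 0.0677, 0.201 and 0.312, and that for Grb10 also without control IELp replicate 2 (0.0632). H19 was at 1.02, 0.882 and 0.957 CPM in control and 5.28, 3.37 and 3.69 CPM in KO IELp, and at 0 in control IELs and 0.501, 0.688 and 0.893 CPM in KO spleen cells. In CD8αα cells 5 of 15 tested genes of this list were higher and 7 lower, where 29.1% and 29.2% of all tested genes were. Igfbp4 went the other way there, with 226 counts in KO spleen cells against 1 in control IELs, a ratio of 217 (95% counting interval 38.6 to 8615). Of 9 tested neuronal genes 2 were higher and 2 lower in KO IELp, the higher being Tubb3, a tubulin of neurons (15.4 to 28.8 CPM, edgeR adjusted p = 2.67e-04), and Nrxn2 at under 1 CPM, whose call was lost in 7 of 13 alternatives, among them leaving out any library but control IELp replicate 3 (edgeR adjusted p up to 0.131). Of the germline and Hox lists, 1 and 2 genes were high enough to test in IELp, too few to describe a group. Of 12 tested genes reported to be repressed by LRF in other cells, 6 were higher and 2 lower in KO IELp. The 6 include Notch3, which met the conditions for the 35 genes and was left out by name, Mcam (6.39 to 30.5 CPM) and the glycolysis genes Pkm, Pfkp and Slc2a3, and the 2 lower were Dtx1 (17.5 to 4.44 CPM) and Notch1 (41.5 to 30.3 CPM). The call for Slc2a3 was lost in 6 of 13 alternatives, among them leaving out any library but control IELp replicate 2 (edgeR adjusted p up to 0.137). That for Notch1 was lost in 5 of 13, among them without control IELp replicate 1 or 2 or KO IELp replicate 2 or 3 (up to 0.0916), and with 1 fit of all 12 libraries (0.188). In CD8αα cells 4 of 14 were higher and 8 lower, so Mcam and Pfkp moved the other way there.

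**Figure D4:**
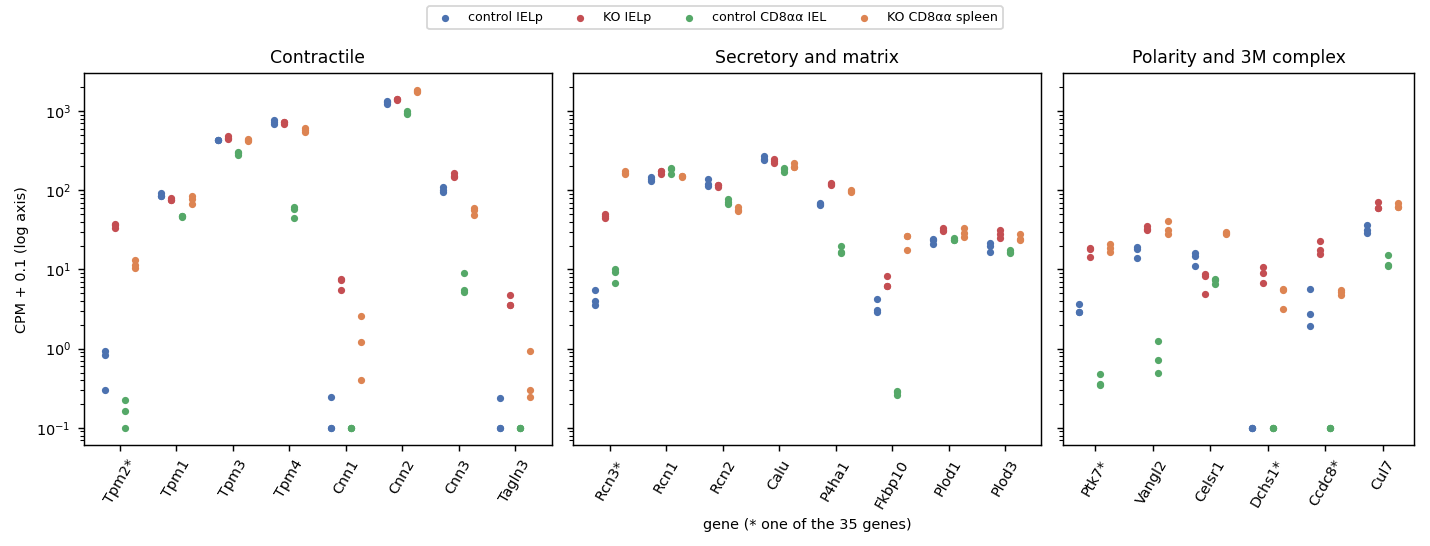
Level of selected relatives and partners in each library, as CPM with 0.1 added on a log axis, coloured by group; an asterisk marks 1 of the 35 genes and each point is 1 library. Tpm2, Rcn3, Ptk7, Dchs1 and Ccdc8 separate KO from control in both pairs, while in IELp the KO and control points of Tpm1, Tpm3, Tpm4, Rcn2 and Calu lie close together.

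The 35 genes were spread over the genome. In the GENCODE M21 annotation on GRCm38, 34 of 35 were found by symbol, all but RP24-235B15.7, and 32 of them were protein coding. They lay on 15 chromosomes, with at most 6 on chromosome 2 and 5 on chromosome 7. Within 1 Mb of each other lay 2 pairs: Sardh (chr2:27188393-27248337, minus strand) with Sardhos (chr2:27189382-27234710, plus strand), and Actn3 (chr19:4861216-4877909, minus strand) with Efemp2 (chr19:5473954-5482517, plus strand). Other positions are Tpm2 at chr4:43514711-43523765, Dchs1 at chr7:105752990-105787654, Igf2 at chr7:142650766-142666816 and Maged1 at chrX:94535474-94542143, all on the minus strand, and Tnfrsf25 at chr4:152115934-152120119 on the plus strand.

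Of the 66 nearest neighbours that were not among the 35, 38 had a mean of at least 2 CPM in KO IELp, and their median ratio of KO to control IELp was 1.01. Of these 38, 2 reached 3-fold in IELp: H19, which lies 72623 bases from Igf2 and is known to share its imprinting control region, and Spats2, 11646 bases from Kcnh3 (1.26 to 5.11 CPM). Of all 66, 3 had a CD8αα ratio of at least 3 with at least 2 CPM in KO spleen cells, namely Tab1 beside Mgat3 (39.3 to 145 CPM), Gmfg beside Lrfn1 (19.8 to 63.3 CPM) and Fcgrt beside Rcn3 (0.535 to 2.60 CPM), while Spats2 went from 24.7 to 4.27 CPM. The same conditions held for 0.304% of all 26629 rows in IELp and 4.03% in CD8αα cells. Those rows include genes below 2 CPM, which cannot meet the conditions, while the 38 neighbours were already at that level in KO IELp. The shares are thus not on a like basis, and the share among rows of at least 2 CPM was not computed. Genes that overlap 1 of the 35 on the opposite strand differed in whether they went with it. Gm15645, opposite Dchs1, was at 0 CPM in control and 0.852 CPM in KO IELp, and D430040D24Rik, opposite Sema4c, went from 0.174 to 0.973 CPM; both were low. Ppip5k1, opposite Map1a, went from 19.2 to 4.71 CPM in IELp and from 31.5 to 2.42 CPM in CD8αα cells, while Map1a went up. Gpr89, opposite Pdzk1, went from 60.4 to 133 CPM in IELp, and Cd160, also opposite Pdzk1, from 495 to 515 CPM. Without a stated strand setting, reads in such overlaps cannot be assigned with certainty.

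Levels of different genes can be set side by side only per length of exon. In KO IELp Dbn1 was highest at 64.5 CPM per kb, followed by Pdzk1 at 48.5 and Rcn3 at 27.5. In KO spleen cells Rcn3 led at 96.9 CPM per kb, followed by Tnfrsf25 at 29.4, Arhgef25 at 28.8 and Crhbp at 27.5. At the low end, Fnbp1l was at 0.256 CPM per kb in KO IELp and 0.194 in KO spleen cells. Lengths are those of all annotated exons together, so a gene that uses few of them is understated.

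RefSeq listed promoter windows for 25 of the 35 genes, 34 windows in all, of 300 bases from 250 before to 50 after a start on GRCm38.p6. The median G and C content was 64.7% over these windows, 52.7% over all 32851 windows and 61.0% over the 10382 windows of genes with a KO mean of at least 2 CPM in both groups. The GC box GGGCGG, searched on both strands, was found in 64.7% of the 34 windows, in 35.7% of all and in 63.3% of the expressed ones. CCNCNCCC, which can overlap the GC box, was found in 76.5%, 49.5% and 67.1%. The E-box CAGGTG stood in 20.6%, 20.2% and 17.4% of windows, the Runx letters TGTGGT in 8.82%, 16.8% and 12.9%, and TATAAA in 5.88%, 13.6% and 6.39%. The ETS letters CCGGAAG were in 0 of the 34 windows, in 8.86% of all and in 19.6% of the expressed ones. The shares for GC box and TATAAA were near those of other expressed genes, and 6 genes gave more than 1 window, those of Fndc4 and 2 of Efemp2 overlapping, so the 34 are not independent.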

How the data were processed

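RNA of 40000 sorted cells per library was isolated, amplified with a SMARTer Ultra Low Input kit and made into libraries with Nextera XT, per the labels' protocols. The submitters' processing notes name bcl2fastq 2.17, Trimmomatic, STAR, HTSeq, DESeq2 and the build mm10, with no settings or strand mode. The authors deposited a table of raw counts for 48663 gene rows with 5 summary rows, and a table of 26629 genes in CPM units (FPM in its name). The deposited CPM values equal the gene counts scaled to the library's total of gene counts, with no difference above 4.99e-06. The summary rows, which hold reads assigned to no gene, took 58.8 to 61.0% of each library's total and stayed out of library sizes and tests.

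Members were chosen from the CPM values by the rule in the report. Members and gene lists were chosen with earlier results of these data known, and the members' roles, relatives and partners were assigned after the members were known. Counts were tested with edgeR 4.0.16 (quasi-likelihood, filterByExpr, TMM scaling) in R 4.3.3, fitting each pair of groups alone, with Benjamini-Hochberg adjustment over all tested genes and a threshold of 0.05. No covariate was used. The procedure was tested on simulated data. Members were tested only between the 2 KO groups and between the 2 control groups. Alternatives were DESeq2 1.42.0, its size factors in edgeR, no filter, a replicate block, 1 fit of all 12 libraries, limma 3.58.1 on log2 values with 1 or 0.1 added, other thresholds of the rule, and leaving out each library. A group at 0 counts was given 3 counts in all as its floor, and ratios on 1 to 3 counts carry exact 95% intervals; floors and intervals cover counting error only. Values in every library are given for members with the largest smaller ratio and for those a sentence turns on; in tests and lists the most changed genes and the partners of members are named.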

Additional observations from a re-analysis of the deposited data

How the results depend on the processing

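The rule gave 87 genes with a fold of 2, 20 with a fold of 5 and 22 with a KO minimum of 5 CPM, against 35 as reported. Leaving out single libraries gave 35 to 38 genes. Between the KO groups, leaving out single libraries gave 14 genes higher in each case and 9 to 10 lower, against 14 and 10. Between the control groups it gave 4 to 5 higher and 10 to 18 lower, against 4 and 12; the 18 came without control IEL replicate 3. One fit of all 12 libraries gave 19 genes lower in control IELs, 11 of them among the 12, and most of the others had been too low to test in the control groups alone. Over the function lists, leaving out libraries gave 21 to 28 genes higher and 11 to 15 lower in KO than in control IELp, against 29 and 16, and 38 to 47 higher and 37 to 41 lower in KO spleen cells than in control IELs, against 41 and 41. One fit of all 12 libraries gave 9 list genes lower in KO IELp, 8 of them among the 16; the cause was not tested.

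Deviations of same-numbered libraries correlated at no more than 0.0647. Between the KO groups they correlated at 0.022 to 0.027, and differently numbered libraries at 0.0055 or less. Between the control groups the values were 0.031 to 0.0647, and 0.0292 or less. These small values do not settle whether replicate numbers pair the libraries of a genotype. With the replicate block, 15 of the 35 genes were higher and 10 lower between the KO groups, 4 and 11 between the control groups, and 27 and 14 list genes in IELp and 39 and 38 in CD8αα cells. Of the single-gene values under alternatives, 436 of 455 between the KO groups and 299 of 325 between the control groups kept their call, and no value past the threshold changed sign. Genes that did not pass could change sign, as Smarca1 between the KO groups (-0.09 to 0.83 on the log2 scale) and Phf19 between the control groups (-0.13 to 0.26). Counts of 0 to 3 in control groups leave the size of the largest ratios unknown at this depth. With limma on the deposited values, 43.1% of called genes were higher in KO than in control IELp against 49.6% with edgeR, and 59.4% against 49.9% in KO spleen cells than in control IELs, at a median of 0.11 on the log2 scale.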
